A study of Mus musculus with 24 samples.

Results

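The 10 genes described here make up much of the epidermal growth factor (EGF) system of mouse skin. They are 6 ligands (Areg, Ereg, Epgn, Hbegf, Tgfa and Btc), 3 receptors (Egfr, Erbb2 and Erbb3) and the receptor inhibitor gene Errfi1. They were chosen by name, with earlier results of these data known, and each matched 1 of 27180 rows of the count tables. The skin came from K14E7 mice (E7), in which the keratin 14 promoter, active in basal keratinocytes, drives the E7 oncoprotein of human papillomavirus 16, from K14E7 mice also labelled CD1d knockout (CD1dKOxE7), and from C57BL/6 mice (C57). Whole ear skin of E7 and C57 mice was taken at 8 weeks of age. Ear skin of CD1dKOxE7, E7 and C57 donors was grafted onto C57BL/6 recipients, whose own cells can enter a graft, and was taken 14 or 28 days after grafting. Each of the 8 groups had 3 libraries, 24 in all. Nothing in the labels says whether the libraries of a group came from separate animals, so the p-values below set differences against the spread between libraries. In comparisons with grafts, that spread was estimated over all 18 graft libraries or all 24 libraries, not over the compared groups alone.

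EGF family ligands are made as membrane proteins, released by metalloproteases at the cell surface, and bind receptor tyrosine kinases of the ErbB family. Binding pairs the receptors and starts signalling through the Ras and ERK cascade, PI3 kinase and STAT3, which in epidermis is known for driving keratinocyte growth, migration and wound closure and for shaping the hair cycle. The same signalling induces several ligand genes and inhibitors such as Errfi1, so that it feeds both forward and back.

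On chromosome 5, 4 of the ligand genes lie in 1 stretch that spans 375.5 kb on GRCm38, in the order Epgn, Ereg, Areg and Btc, with 45.9 kb between Ereg and Areg. The promoter windows of Areg, Errfi1 and Epgn, from 250 bases before to 50 bases after a gene start, are shown because these 3 genes rose in E7 ears and in E7 grafts of day 14 and because these windows held a match to a motif searched. Sequences are from RefSeq on GRCm38.p6, plus strand, 5′ to 3′, and capitals mark the motif matches. The Errfi1 window shown is that of the second of its listed starts.
Areg, chr5:91139349-91139648: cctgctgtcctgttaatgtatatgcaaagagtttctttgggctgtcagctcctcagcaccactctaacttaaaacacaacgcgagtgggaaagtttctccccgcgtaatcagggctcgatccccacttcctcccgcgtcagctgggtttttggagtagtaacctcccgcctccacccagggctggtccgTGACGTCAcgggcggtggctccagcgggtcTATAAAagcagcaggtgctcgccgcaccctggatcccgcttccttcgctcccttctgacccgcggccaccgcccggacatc
Errfi1, chr4:150854820-150855119: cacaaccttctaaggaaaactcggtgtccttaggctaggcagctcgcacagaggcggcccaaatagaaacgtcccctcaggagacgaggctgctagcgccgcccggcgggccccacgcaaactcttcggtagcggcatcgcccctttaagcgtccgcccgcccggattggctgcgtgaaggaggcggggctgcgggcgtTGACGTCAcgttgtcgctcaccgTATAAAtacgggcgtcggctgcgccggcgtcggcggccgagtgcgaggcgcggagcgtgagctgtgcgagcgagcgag
Epgn, chr5:91027267-91027566: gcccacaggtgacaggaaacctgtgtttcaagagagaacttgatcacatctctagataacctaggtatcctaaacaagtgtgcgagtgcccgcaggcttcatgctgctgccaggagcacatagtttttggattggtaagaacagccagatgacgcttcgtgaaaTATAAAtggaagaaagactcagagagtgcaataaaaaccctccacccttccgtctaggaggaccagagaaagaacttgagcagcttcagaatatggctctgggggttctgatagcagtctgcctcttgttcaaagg
The cAMP response element TGACGTCA stood at position -61 of Areg and -51 of Errfi1, counted from the gene start, and a TATA box TATAAA followed at -31 and -28. Epgn held TATAAA at -86. On both strands, TGACGTCA was found in 1.79% and TATAAA in 13.6% of 32851 promoter windows. The AP-1 motif TGANTCA (7.81% of windows) and the E2F motif TTTNNCGC (5.17%) were not found in the 8 member windows searched. These belonged to 7 members, Areg, Epgn, Btc, Tgfa, Egfr, Erbb2 and Errfi1, and no window of Ereg, Erbb3 or Hbegf was searched. The searched motifs did not overlap, and a match is only a run of letters.

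Levels are CPM, that is, counts scaled to a common library size (here by TMM), and library totals were 6550011 to 13814448 counts. All 10 genes passed the filter on low counts in every fit. In the ear fit Areg and Epgn passed it through the E7 ears. C57 ears held 0, 0 and 6 counts of Areg and 9, 14 and 10 counts of Epgn and did not pass it alone. Summed levels of 10 basal keratinocyte markers were 10490 to 21770 CPM, so all libraries held epidermis. E7 transgene reads followed the labels in presence, with 0 to 2 counts in any C57 library, but their level differed between donors. In grafts of day 14 they stood at 20.4, 17.6 and 23.5 CPM for CD1dKOxE7, all below the 33.8, 40.6 and 38.6 CPM for E7. On day 28 CD1dKOxE7 grafts held 44.1, 44.4 and 18.8 CPM, against 25.5, 34.1 and 27.1 CPM in E7 grafts. The part of the transgene level in the results was not tested. The CD1d gene Cd1d1 was read in CD1dKOxE7 grafts, at 13.6, 17.3 and 11.4 CPM on day 14 and 5.34, 4.44 and 14.7 CPM on day 28. E7 grafts held 15.2, 14.3 and 16.8 CPM on day 14 and 25.8, 21.4 and 23.1 CPM on day 28. The day 14 libraries labelled CD1dKOxE7 thus overlapped those of E7 and did not show the loss that the label names, and which part of the gene was deleted is not given in the sources used here. In the CD1dKOxE7 grafts of day 28, replicate 3 stood apart from the other two, with 18.8 CPM of E7 against 44.1 and 44.4 CPM, so the tests, orders and ligand totals that change without it are given both ways. The run codes in the labels, which have the form of a flow cell and a lane, differ between grafts and ears and between CD1dKOxE7 grafts and the other grafts. Run and tissue, and run and CD1dKOxE7 genotype, cannot be told apart. E7 grafts enter both the E7 over C57 and the CD1dKOxE7 over E7 comparisons, which are therefore not independent. A gene on the opposite strand overlaps Ereg (Gm19610), Tgfa (Gm43917), Egfr (Egfros), Erbb2 (Mien1) and Errfi1 (1700045H11Rik), and since the strand setting of the counting is not given in the sources used here, reads of the pairs may be mixed and these levels are uncertain to that extent.

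**Figure D1:**
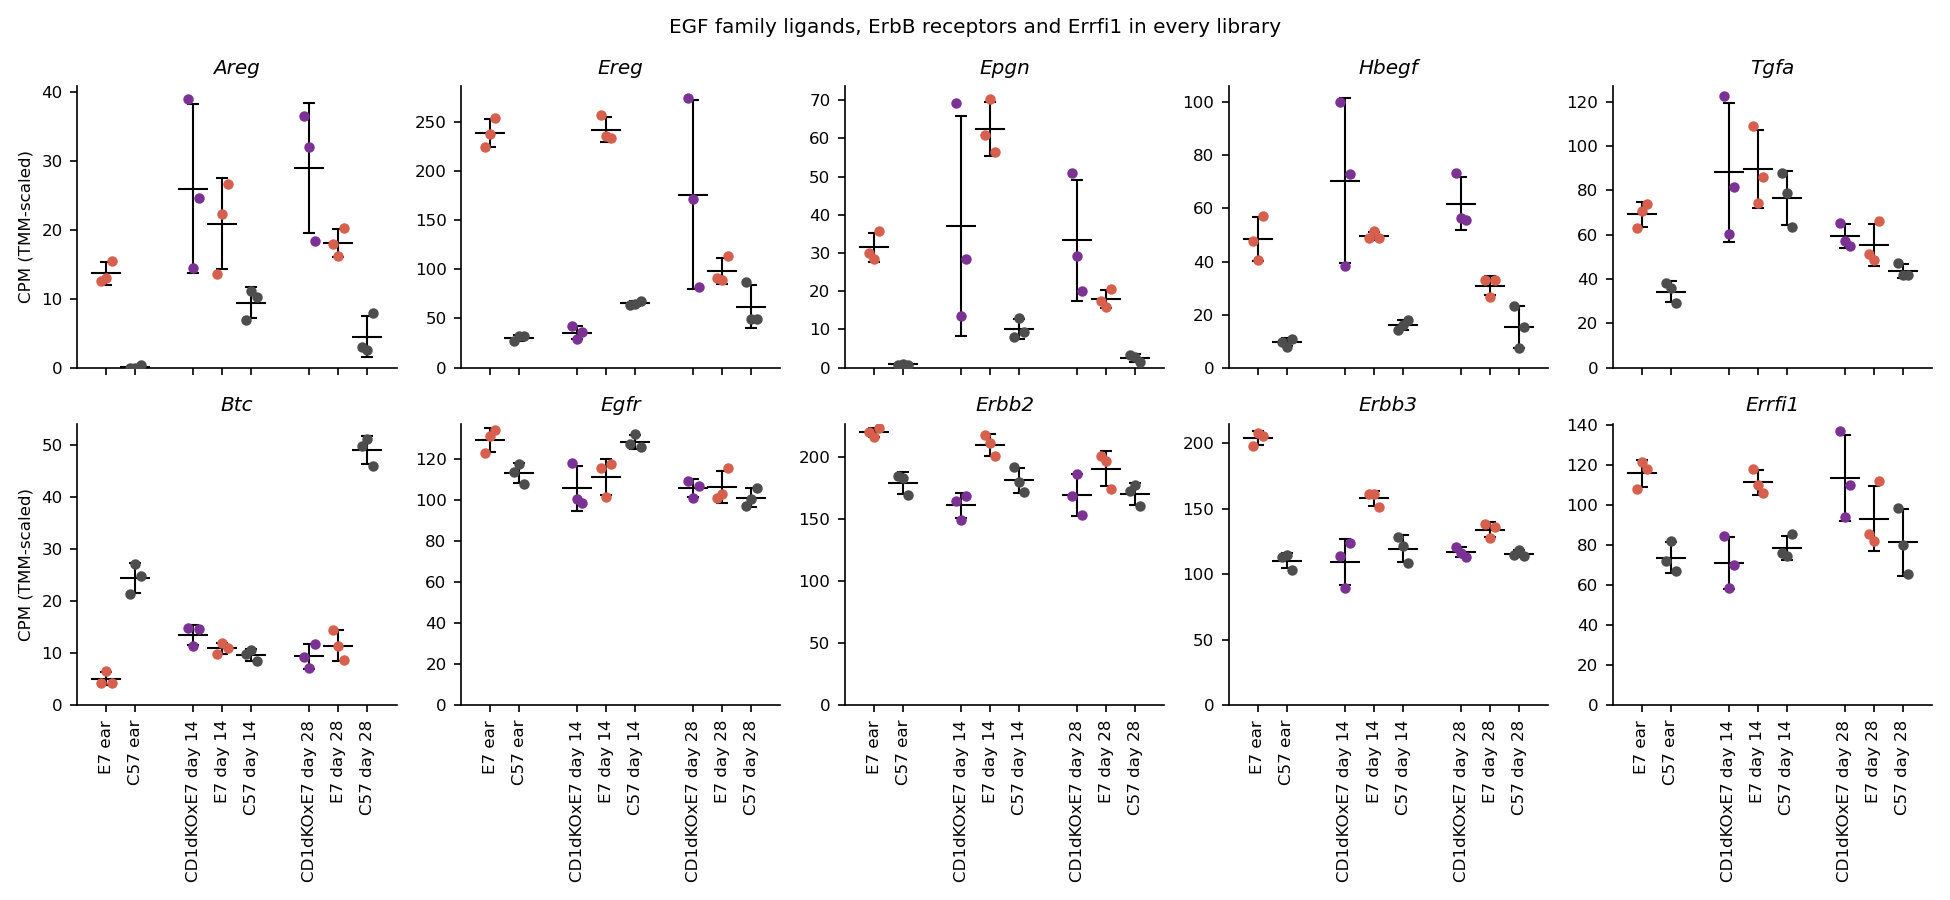
CPM (TMM-scaled counts, y axes from 0) of the 10 genes in each of the 24 libraries. Points are libraries, in replicate order from left to right, coloured purple for CD1dKOxE7, red for E7 and grey for C57, and bars are mean ± SD (n = 3). The x labels under the lower row hold for both rows. Areg, Epgn and Hbegf sit higher in E7 than in C57 skin of the same tissue and day, and Ereg is high in E7 ears and E7 grafts of day 14. Btc is highest in C57 grafts of day 28, and Ereg is low in CD1dKOxE7 grafts of day 14.

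In ear skin, 9 of the 10 genes were higher and Btc was lower in E7 than in C57 mice. Of these 9, Areg and Epgn entered the test only through their E7 libraries, so their direction is not independent of the filter. All 10 passed the threshold (edgeR quasi-likelihood test, Benjamini-Hochberg adjusted p below 0.05 over 15720 genes). The background was high: 65.3% of all genes tested passed here, 32.6% of them by being higher and 32.7% by being lower. For 9 of the 10 genes all E7 libraries were above all C57 libraries, and for Btc all were below, a separation seen for 71.1% of all genes. Of the genes that passed, 50% were higher, and 39.1% under upper quartile normalization, which moved the median of all genes by -0.12 on the log2 scale.

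Amphiregulin (Areg), an EGFR ligand that keratinocytes make for their own growth, had 12.5, 13.0 and 15.5 CPM in E7 ears, against 0, 0 and 0.406 CPM in C57 ears. C57 ears held 6 counts of it in all, in 1 library, and none in the other two. The log2 fold change of 6.43 ± 0.44 (SE, adjusted p = 1.45e-06) rests on those few counts for its size. It was 10.28 without the library that held them, a value that depends on the default prior count of edgeR. Values given as x ± y in brackets after levels are log2 fold changes with their SE. Epigen (Epgn), a low-affinity EGFR ligand, had 30.1, 28.5 and 35.8 CPM in E7 ears and 0.736, 1.05 and 0.677 CPM in C57 ears. It was thus close to absent in C57 ears and rose 38.0-fold (log2 fold change 5.25 ± 0.18, adjusted p = 3.67e-09).

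Epiregulin (Ereg), which binds EGFR and ErbB4, stood at 225, 238 and 254 CPM in E7 ears and at 27.1, 31.8 and 32.1 CPM in C57 ears. It rose 7.86-fold (2.97 ± 0.08, adjusted p = 9.60e-10), and its E7 libraries varied little. Heparin-binding EGF (Hbegf), a ligand known from migrating keratinocytes at wound edges, had 47.7, 40.5 and 57.2 CPM in E7 ears, against 9.81, 7.88 and 10.8 CPM in C57 ears, and rose 5.09-fold (2.35 ± 0.15, adjusted p = 8.31e-07). Transforming growth factor alpha (Tgfa), whose loss gives mice wavy hair, had 63.0, 70.8 and 74.0 CPM in E7 ears and 38.0, 35.7 and 29.0 CPM in C57 ears. Its rise of 2.03-fold (1.02 ± 0.10, adjusted p = 9.77e-06) was the smallest of the rising ligands.

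Betacellulin (Btc), a further ligand of EGFR and ErbB4, went the other way, with 4.33, 6.54 and 4.36 CPM in E7 ears, against 21.3, 27.0 and 24.8 CPM in C57 ears. It fell by 2.26 on the log2 scale (SE 0.16, adjusted p = 5.12e-07). All 8 Schwann cell markers and all 6 skeletal muscle markers fell in E7 ears as well, with summed levels of 231.5 to 242.1 CPM in E7 ears, against 609.5 to 727.3 CPM in C57 ears, for Schwann cells and of 1105 to 1678 CPM in E7 ears, against 3249 to 6050 CPM in C57 ears, for muscle. All tested markers of dermal fibroblasts (6), adipocytes (5), endothelium (5), mast cells (5) and cartilage (4) fell too. The part of these cells in the Btc result was not tested. In whole skin, fewer cells of a type and less RNA per cell cannot be told apart.

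The receptors changed less than the ligands. Erbb3, the kinase-poor receptor for neuregulins, had 198, 208 and 205 CPM in E7 ears, against 113, 114 and 103 CPM in C57 ears (0.88 ± 0.06, adjusted p = 4.09e-07). The E7 and C57 libraries were far apart, and the rise of Erbb3 was 1.85-fold. Erbb2, the partner receptor that needs no ligand, had 220, 216 and 223 CPM in E7 ears and 185, 183 and 169 CPM in C57 ears (0.30 ± 0.06, adjusted p = 0.00102). Egfr itself had 123, 131 and 134 CPM in E7 ears and 114, 117 and 108 CPM in C57 ears (0.20 ± 0.06, adjusted p = 0.0141). This small rise lost its call under upper quartile normalization (0.08, adjusted p = 0.289) and without replicate 3 of the E7 ears (0.17, adjusted p = 0.0584). Errfi1, which encodes the feedback inhibitor MIG6 of the EGFR kinase, had 108, 122 and 118 CPM in E7 ears, against 71.9, 82.2 and 67.1 CPM in C57 ears, and rose 1.57-fold (0.65 ± 0.08, adjusted p = 2.98e-05).

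Among 53 further genes of the pathway tested in the ear, 27 rose and 13 fell. Of 14 ERK-induced and feedback genes, 9 rose and 5 fell. Ier3, an early growth factor response gene, had 107 CPM in E7 ears and 27.9 CPM in C57 ears (1.94 ± 0.07), and the AP-1 subunit gene Fosl1 had 6.99 CPM in E7 ears and 0.449 CPM in C57 ears (3.94 ± 0.25). Etv5, an ETS factor gene, and the Sprouty inhibitor genes Spry2 and Spry4 fell, by 0.97, 0.82 and 1.20 on the log2 scale.

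Of the 7 genes of ligand shedding, 5 rose and 2 fell in the ear. The sheddase gene Adam10 had 118 CPM in E7 ears and 67.6 CPM in C57 ears (0.80 ± 0.08). Timp3, which encodes an inhibitor of the sheddase ADAM17, fell by 1.83 on the log2 scale. Of 3 other ErbB ligand genes tested, Egf (3.94 CPM in E7 and 8.47 CPM in C57 ears) and Nrg2 fell. Of 9 genes of receptor turnover and inhibition, 3 rose, among them Socs4 (0.88 ± 0.09), and 2 fell, among them Lrig1 (-0.23 ± 0.06). Of 20 signal relay genes, 10 rose, with Stat3 at 338 CPM in E7 ears and 212 CPM in C57 ears (0.67 ± 0.08), and 2 fell, with the PI3 kinase subunit gene Pik3r1 at 88.5 CPM in E7 ears and 239.7 CPM in C57 ears (-1.44 ± 0.08). These counts stand against the 65.3% of all genes that passed in the ear.

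Immediate early and heat shock genes, which share inducers with this pathway and also follow tissue handling, rose in E7 over C57 skin too. Of 15 such genes, 10 rose in the ear, 9 in grafts of day 14 and 8 in grafts of day 28, and none fell. Their summed levels were 2065 to 2172 CPM in E7 ears and 984.3 to 1195 CPM in C57 ears. In grafts of day 14 they were 1594 to 1966 CPM for E7 and 988.4 to 1130 CPM for C57 donors, and on day 28 they overlapped, at 1544 to 1617 CPM for E7 and 880.2 to 1799 CPM for C57 donors. The shares of all genes that were higher were 32.6%, 15.8% and 20.7% in the same comparisons. The part of handling in the ligand results was not tested.

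Keratinocyte markers moved in the same comparisons. In the ear, all 8 suprabasal markers rose (sums of 56330 to 60660 CPM in E7 and 26240 to 31340 CPM in C57 ears), and so did all 4 wound-associated keratins (1930 to 4614 CPM in E7 and 343.5 to 458.8 CPM in C57 ears). In grafts of day 14, 4 of 8 suprabasal markers and 2 of 4 wound-associated keratins rose, and in grafts of day 28, 4 of 8 and 4 of 4 rose and 1 suprabasal marker fell. The wound-associated keratins summed to 7816 to 13730 CPM in E7 and 3222 to 5155 CPM in C57 grafts of day 14, and to 8113 to 8739 CPM in E7 and 667.2 to 960.5 CPM in C57 grafts of day 28. Of 10 basal keratinocyte markers 2 rose and 6 fell in the ear. Their part in the ligand results was not tested.

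**Figure D2:**
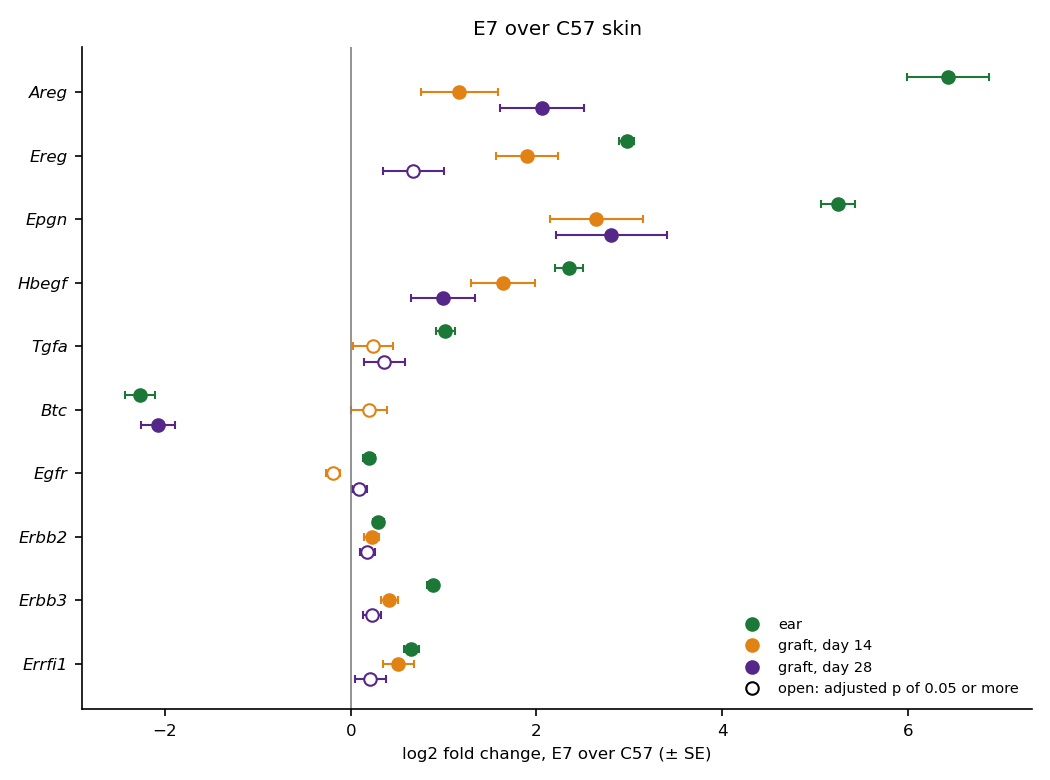
Log2 fold change of E7 over C57 skin (x axis, ± SE) for the 10 genes in ear (green), grafts of day 14 (orange) and grafts of day 28 (purple). Filled points had an adjusted p below 0.05. Areg reached 6.43 in ear, 1.17 on day 14 and 2.06 on day 28, and Btc stood at -2.26 and -2.08 in ear and on day 28 but at 0.20 on day 14.

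In grafts of day 14, E7 skin again carried more Ereg, Epgn, Hbegf and Areg transcript than C57 skin. Of the 10 genes 7 rose and none fell, against 30.2% of 16189 genes that passed in either direction (15.8% higher, 14.4% lower). All E7 libraries were above all C57 libraries for 7 of the 10 genes and below them for 1, against 47.2% of all genes separated either way. For Ereg the E7 grafts held 257, 236 and 234 CPM and the C57 grafts 63.5, 65.1 and 68.3 CPM (1.90 ± 0.33, adjusted p = 0.00117). Epgn had 60.9, 70.2 and 56.4 CPM in E7 grafts, against 8.09, 13.0 and 9.31 CPM in C57 grafts (2.65 ± 0.50, adjusted p = 0.00176). Neither pair of groups overlapped, and E7 grafts of this day had the highest mean of Epgn among all 8 groups.

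Hbegf stood at 48.7, 51.6 and 49.0 CPM in E7 grafts, with 14.3, 15.9 and 18.0 CPM in C57 grafts of day 14 (1.64 ± 0.34, adjusted p = 0.00322). Areg had 13.7, 22.3 and 26.7 CPM in E7 grafts, against 6.95, 11.1 and 10.3 CPM in C57 grafts (1.17 ± 0.42, adjusted p = 0.0459). The groups did not overlap for either gene, but the Areg libraries were wide apart within a group. The Areg call was lost (adjusted p = 0.0678 to 0.141) when any C57 library or E7 replicate 2 or 3 was left out, and without the filter (adjusted p = 0.0773). Tgfa, with 109, 74.5 and 85.8 CPM in E7 grafts, with 87.6, 78.9 and 63.4 CPM in C57 grafts (0.24 ± 0.21, adjusted p = 0.416), overlapped and did not pass. Btc did not pass either, with 9.84, 11.8 and 11.0 CPM in E7 grafts, with 9.86, 10.7 and 8.47 CPM in C57 grafts (0.20 ± 0.19, adjusted p = 0.463).

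Among receptors on day 14, Erbb3 had 161, 161 and 151 CPM in E7 grafts, with 128, 122 and 108 CPM in C57 grafts (0.42 ± 0.09, adjusted p = 0.00398). Erbb2 had 218, 211 and 201 CPM in E7 grafts, against 192, 180 and 172 CPM in C57 grafts (0.22 ± 0.08, adjusted p = 0.0497). Errfi1 had 118, 110 and 106 CPM in E7 grafts, with 75.8, 74.8 and 85.6 CPM in C57 grafts (0.51 ± 0.17, adjusted p = 0.0318). All 3 rose with no overlap between the groups. Other settings ended the calls of Erbb2 (C57 replicate 2 or 3 or any E7 library, adjusted p = 0.0549 to 0.174, and upper quartile normalization, adjusted p = 0.0681) and of Errfi1 (any C57 library or E7 replicate 1 or 2, adjusted p = 0.0549 to 0.0939). Without the filter on low counts neither passed (adjusted p = 0.0743 for Erbb2 and 0.0534 for Errfi1). Egfr was lower in every E7 graft (115, 101 and 117 CPM) than in every C57 graft (127, 132 and 126 CPM) but did not pass (-0.19 ± 0.08, adjusted p = 0.0771). It passed under upper quartile normalization (-0.21, adjusted p = 0.0486) and with all 24 libraries in 1 fit (-0.21, adjusted p = 0.0389).

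Of the other pathway genes 10 rose and 5 fell, of 54 tested on day 14. Ier3 had 65.7 CPM in E7 grafts and 27.6 CPM in C57 grafts (1.27 ± 0.14), and Phlda1, an ERK-responsive gene, had 52.6 CPM in E7 grafts and 26.0 CPM in C57 grafts (1.03 ± 0.23). Timp3, at 239 CPM in E7 grafts and 507 CPM in C57 grafts, fell by 1.07 on the log2 scale, and the iRhom gene Rhbdf1, whose protein guides ADAM17, fell by 0.26. The share that passed was close to the 30.2% of all genes.

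On day 28, 3 of the 10 genes rose and Btc fell in E7 grafts, against 35.4% of all genes that passed (20.7% higher, 14.7% lower). Libraries of E7 were apart from those of C57 for 7 of the 10 genes, above for 6 and below for 1, against 53.2% of all genes. Of all genes that passed, 58.4% were higher, and 47.9% under upper quartile normalization. Epgn had 17.5, 15.8 and 20.5 CPM in E7 grafts, with 3.40, 2.66 and 1.40 CPM in C57 grafts (2.81 ± 0.60, adjusted p = 0.00286). Areg had 17.9, 16.2 and 20.2 CPM in E7 grafts, against 3.04, 2.52 and 7.96 CPM in C57 grafts (2.06 ± 0.45, adjusted p = 0.00322). In both genes the lowest E7 library was more than 2-fold above the highest C57 library.

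Hbegf stood at 33.0, 26.8 and 32.9 CPM in E7 grafts, with 23.3, 7.42 and 15.3 CPM in C57 grafts of day 28 (1.00 ± 0.34, adjusted p = 0.0364). Its C57 libraries spread from 7.42 to 23.3 CPM, all below the E7 libraries, and the call was lost (adjusted p = 0.0506 to 0.113) without C57 replicate 2 or 3 or without any E7 library. It was also lost without the filter (adjusted p = 0.0757) and with only the compared groups (adjusted p = 0.0890). Btc had 14.4, 11.3 and 8.62 CPM in E7 grafts, against 49.8, 51.1 and 45.9 CPM in C57 grafts (-2.08 ± 0.18, adjusted p = 9.32e-07). The C57 grafts of day 28 held more Btc than any other group. All 8 Schwann cell, all 5 endothelial and 5 of 6 dermal fibroblast markers fell with it. The Schwann cell markers stood at summed levels of 207.7 to 222.5 CPM in E7 grafts and 337.8 to 733.8 CPM in C57 grafts, and their part in the Btc result was not tested.

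The other 6 genes did not pass on day 28. Ereg had 91.3, 89.4 and 114 CPM in E7 grafts, with 87.0, 49.0 and 49.8 CPM in C57 grafts (0.67 ± 0.33, adjusted p = 0.126). Its groups were only just apart, through C57 replicate 1, and it passed without that library (1.01, adjusted p = 0.0493). Log2 fold changes of Tgfa, Erbb3, Errfi1, Erbb2 and Egfr were 0.36 ± 0.22, 0.23 ± 0.09, 0.21 ± 0.17, 0.18 ± 0.08 and 0.09 ± 0.08, with adjusted p from 0.0652 to 0.387. Libraries of E7 and C57 were apart for Tgfa and Erbb3 and overlapped for Errfi1, Erbb2 and Egfr. With only the compared groups, Tgfa (0.35, adjusted p = 0.0427) and Erbb3 (0.22, adjusted p = 0.0198) passed as higher. Erbb2 passed as higher without E7 replicate 3 (0.24, adjusted p = 0.0475). Of 54 further pathway genes 17 rose and 7 fell on day 28, against 20.7% and 14.7% of all genes. They included Dusp4, a phosphatase gene of ERK feedback, at 14.0 CPM in E7 grafts and 7.23 CPM in C57 grafts (0.99 ± 0.29), Adam10 (0.56 ± 0.11), and Egf, at 2.52 CPM in E7 grafts and 5.87 CPM in C57 grafts, which fell by 1.19 on the log2 scale.

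The E7 difference itself was compared between days. It was lower on day 28 for 1 of the 10 genes and higher for none, against 0.167% of all genes (27 of 16189), 0.0185% lower and 0.148% higher. For Btc the difference was 2.27 log2 units lower on day 28 than on day 14 (SE 0.26, adjusted p = 0.0013). Within C57 grafts Btc had 49.8, 51.1 and 45.9 CPM on day 28 and 9.86, 10.7 and 8.47 CPM on day 14 (2.35 ± 0.18, adjusted p = 4.39e-06). In E7 grafts the level did not pass between days (0.08 ± 0.19, adjusted p = 0.806). All 8 Schwann cell and all 6 skeletal muscle markers rose between these days in C57 grafts too, the muscle markers to 1508 to 3494 CPM on day 28, against 242.2 to 874.9 CPM on day 14. In E7 grafts, 4 of the 8 Schwann cell markers rose between days and none fell, and no muscle marker passed. The part of these markers in the Btc results was not tested.

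**Figure D3:**
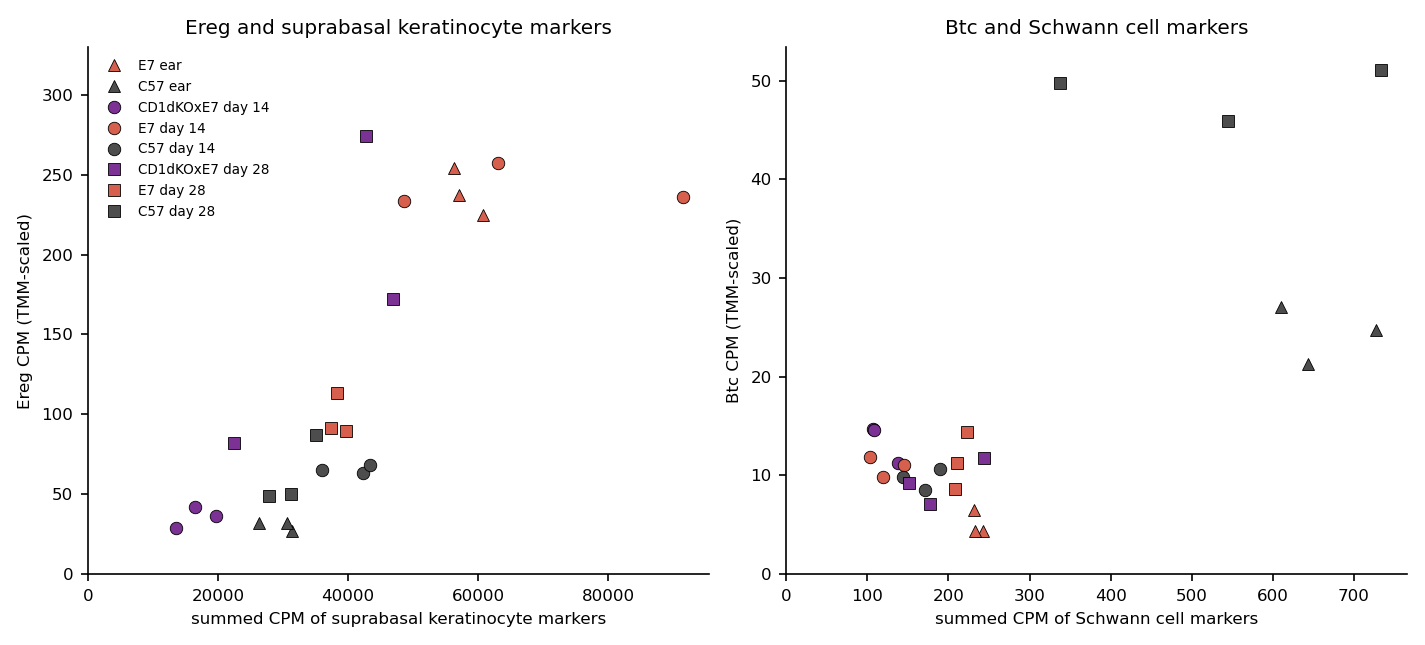
Left, Ereg CPM (y) against the summed CPM of 8 suprabasal keratinocyte markers (x) and right, Btc CPM against the summed CPM of 8 Schwann cell markers, with 1 symbol per library. Colours are purple for CD1dKOxE7, red for E7 and grey for C57, with triangles for ear, circles for day 14 and squares for day 28. CD1dKOxE7 grafts of day 14 lie low on both axes at left, and C57 ears and C57 grafts of day 28 lie high on both at right.

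CD1dKOxE7 grafts differed from E7 grafts on day 14 most of all in Ereg. Of the 10 genes 4 fell and none rose, against 29.8% of all genes that passed (15.1% higher, 14.8% lower). For those 4 genes all CD1dKOxE7 libraries were below all E7 libraries, and 42.5% of all genes were separated in either direction. Ereg had 42.1, 28.6 and 36.2 CPM in CD1dKOxE7 grafts, against 257, 236 and 234 CPM in E7 grafts (-2.78 ± 0.35, adjusted p = 5.04e-05). The highest CD1dKOxE7 library was below every C57 graft of either day. With 1 library left out at a time the log2 fold change stayed between -2.92 and -2.64.

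Errfi1 fell as well, with 84.4, 58.8 and 70.0 CPM in CD1dKOxE7 grafts and 118, 110 and 106 CPM in E7 grafts (-0.66 ± 0.17, adjusted p = 0.00789). Erbb3 had 114, 89.5 and 123 CPM in CD1dKOxE7 grafts, against 161, 161 and 151 CPM in E7 grafts (-0.55 ± 0.09, adjusted p = 0.000368). Erbb2 had 165, 150 and 169 CPM in CD1dKOxE7 grafts and 218, 211 and 201 CPM in E7 grafts (-0.39 ± 0.08, adjusted p = 0.00193). None of the 3 overlapped between the groups.

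The other ligands did not pass on day 14. Areg had 38.9, 14.5 and 24.6 CPM in CD1dKOxE7 grafts and 13.7, 22.3 and 26.7 CPM in E7 grafts (0.29 ± 0.39, adjusted p = 0.613). Hbegf had 100.2, 38.3 and 72.9 CPM in CD1dKOxE7 grafts, against 48.7, 51.6 and 49.0 CPM in E7 grafts (0.49 ± 0.32, adjusted p = 0.275). Epgn had 69.2, 13.6 and 28.3 CPM in CD1dKOxE7 grafts and 60.9, 70.2 and 56.4 CPM in E7 grafts (-0.76 ± 0.44, adjusted p = 0.222). In all 3 genes the CD1dKOxE7 library of replicate 1 was the highest and that of replicate 2 the lowest, and the groups overlapped. Without replicate 1, Epgn passed as lower (-1.61, adjusted p = 0.00632). Tgfa (122, 60.5 and 81.4 CPM in CD1dKOxE7 grafts) showed the same order of libraries and a log2 fold change of -0.03 ± 0.21. Btc (0.29 ± 0.19, adjusted p = 0.267) and Egfr (-0.09 ± 0.08, adjusted p = 0.452) did not pass.

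Markers of other kinds moved in the same comparison. All 8 suprabasal keratinocyte markers fell, with summed levels of 13540 to 19750 CPM in CD1dKOxE7 grafts and 48620 to 91550 CPM in E7 grafts. Of 4 wound-associated keratins 3 rose, with sums of 13690 to 27140 CPM in CD1dKOxE7 grafts and 7816 to 13730 CPM in E7 grafts. All 6 T cell markers rose, with sums of 216.1 to 266.0 CPM in CD1dKOxE7 grafts and 28.56 to 41.25 CPM in E7 grafts. Of 15 immediate early and heat shock genes 5 fell. No marker of these lists was at 0 in any library, and their part in the Ereg result was not tested. The E7 transgene was also lower in these CD1dKOxE7 grafts, as given above, and its part was not tested either.

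Of 54 further pathway genes 7 rose and 10 fell in CD1dKOxE7 grafts of day 14. Neuregulin 1 (Nrg1), a ligand of ErbB3, had 7.37 CPM in CD1dKOxE7 grafts and 3.11 CPM in E7 grafts (1.25 ± 0.37, adjusted p = 0.0166). The adaptor gene Grb2 (103 CPM in CD1dKOxE7 and 63.3 CPM in E7 grafts, 0.69 ± 0.10), Stat3 (432.8 CPM in CD1dKOxE7 and 284.9 CPM in E7 grafts, 0.59 ± 0.09) and the sheddase gene Adam17 (159.6 CPM in CD1dKOxE7 and 136 CPM in E7 grafts, 0.22 ± 0.08) rose. The exchange factor gene Sos1 fell by 0.24 on the log2 scale, and Spry1 and Ier3 fell by 0.63 and 0.42. The share that passed was again close to the 29.8% of all genes.

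**Figure D4:**
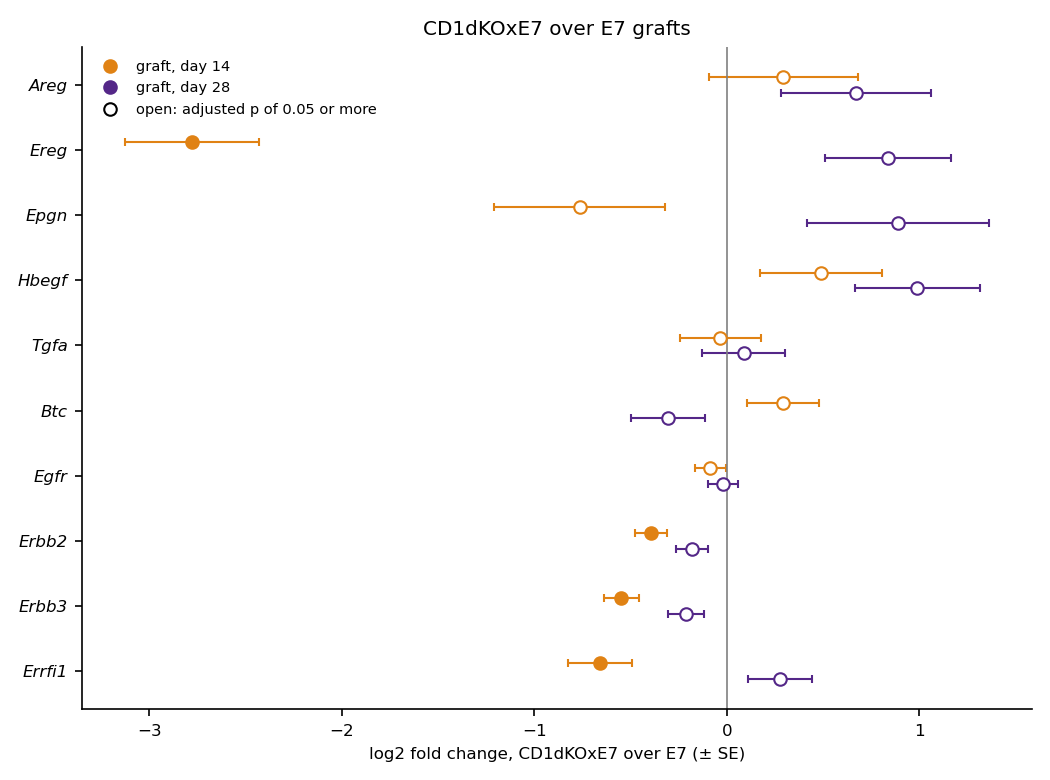
Log2 fold change of CD1dKOxE7 over E7 grafts (x axis, ± SE) for the 10 genes on day 14 (orange) and day 28 (purple). Filled points had an adjusted p below 0.05. On day 14 Ereg stood at -2.78, with Errfi1, Erbb3 and Erbb2 between -0.66 and -0.39, and on day 28 no gene passed and Ereg stood at 0.84.

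By day 28 none of the 10 genes passed between CD1dKOxE7 and E7 grafts in edgeR or in DESeq2, and 4 had an unadjusted p below 0.05 (Ereg, Hbegf, Erbb2 and Erbb3). Few genes passed at all, 0.21% (34 of 16189), 0.0741% higher and 0.136% lower. Ereg had 274, 172 and 81.8 CPM in CD1dKOxE7 grafts and 91.3, 89.4 and 114 CPM in E7 grafts (0.84 ± 0.32, adjusted p = 0.304). Replicate 3, the library that stood apart, was below all E7 grafts and the other two were above. Without it Ereg passed as higher (1.18, adjusted p = 0.0273), and 304 genes passed in all. Hbegf had 73.4, 56.3 and 55.8 CPM in CD1dKOxE7 grafts, against 33.0, 26.8 and 32.9 CPM in E7 grafts (0.99 ± 0.33, adjusted p = 0.219), with no overlap. Libraries of CD1dKOxE7 and E7 were also apart for Erbb3, which was lower (121, 116 and 113 CPM, against 138, 127 and 136 CPM). Such separation was seen for 16.2% of all genes. Of 54 further pathway genes none passed, and 11 had an unadjusted p below 0.05.

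The remaining genes of day 28 overlapped. Areg had 36.6, 32.0 and 18.4 CPM in CD1dKOxE7 grafts and 17.9, 16.2 and 20.2 CPM in E7 grafts. Epgn had 50.9, 29.1 and 20.0 CPM in CD1dKOxE7 grafts, against 17.5, 15.8 and 20.5 CPM in E7 grafts. In both genes replicate 3 was the lowest CD1dKOxE7 library and lay among the E7 libraries, while the other two were above them. Their log2 fold changes were 0.67 ± 0.39 (adjusted p = 0.498) for Areg and 0.89 ± 0.47 (adjusted p = 0.450) for Epgn. Errfi1 (0.27 ± 0.17), Tgfa (0.09 ± 0.22), Egfr (-0.02 ± 0.08), Erbb2 (-0.18 ± 0.08) and Btc (-0.31 ± 0.19) did not pass, with adjusted p from 0.375 to 0.945.

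The difference between CD1dKOxE7 and E7 grafts changed between days for Ereg and Errfi1, 2 of 10 genes, both higher on day 28, against 12.8% of all genes (6.54% higher, 6.31% lower). For Ereg it was 3.61 log2 units higher on day 28 (SE 0.47, adjusted p = 0.00063), and 3.96 without CD1dKOxE7 replicate 3 of that day (adjusted p = 7.95e-06). For Errfi1 it was 0.93 higher (SE 0.24, adjusted p = 0.019), and 0.97 without that library (adjusted p = 0.0144). Without that library Btc also passed, as lower on day 28 (-0.77, adjusted p = 0.042). The Errfi1 call was lost without CD1dKOxE7 replicate 2 of day 14 (0.82, adjusted p = 0.0504) and without replicate 1 of day 28 (0.77, adjusted p = 0.0577).

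Each donor was also compared between days. In CD1dKOxE7 grafts 2 of the 10 genes rose, against 22.6% of all genes that passed (10.8% higher, 11.8% lower). Ereg rose to 274, 172 and 81.8 CPM on day 28, against 42.1, 28.6 and 36.2 CPM on day 14 (2.32 ± 0.34, adjusted p = 0.000558). All libraries of day 28 were above those of day 14, and without replicate 3 of day 28 the change was 2.67 (adjusted p = 5.44e-06). Errfi1 rose to 137, 94.2 and 110 CPM, against 84.4, 58.8 and 70.0 CPM (0.69 ± 0.17, adjusted p = 0.00852), and without replicate 1 of day 28 it did not pass (0.53, adjusted p = 0.0523). Btc missed the threshold (-0.52 ± 0.19, adjusted p = 0.0598) and passed as lower without replicate 3 of day 28 (-0.70, adjusted p = 0.013). Of the 8 suprabasal markers 7 rose with them, to sums of 22430 to 46820 CPM on day 28, against 13540 to 19750 CPM on day 14. Of 15 immediate early and heat shock genes 8 rose, to sums of 1946 to 2515 CPM on day 28, against 1321 to 1607 CPM on day 14. All 6 T cell and all 7 hair follicle markers fell, and the part of these markers was not tested.

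In E7 grafts 3 genes fell between days, against 17.2% of all genes (7.68% higher, 9.48% lower). Ereg fell to 91.3, 89.4 and 114 CPM on day 28, against 257, 236 and 234 CPM on day 14 (-1.29 ± 0.33, adjusted p = 0.0172). Epgn fell by 1.78 (SE 0.47, adjusted p = 0.0205) and Tgfa by 0.68 (SE 0.21, adjusted p = 0.0423) on the log2 scale. All 3 calls were lost without E7 replicate 1 of day 14 or without replicate 1 or 2 of day 28. In addition, the Epgn call was lost without replicate 2 of day 14 and the Tgfa call without replicate 3 of day 14, and adjusted p ranged from 0.0540 to 0.170 over these losses. Without the filter Tgfa did not pass (adjusted p = 0.0677). Hbegf was lower in all libraries of day 28 (26.8 to 33.0 CPM) than in those of day 14 (48.7 to 51.6 CPM) but did not pass (-0.67 ± 0.33, adjusted p = 0.170). It passed with only the compared groups (-0.67, adjusted p = 0.0122). All 7 hair follicle markers fell too, to sums of 243.7 to 604.8 CPM on day 28, against 1555 to 6134 CPM on day 14, as did 4 of 8 suprabasal markers, and their part was not tested. None of the 15 immediate early and heat shock genes passed between these days.

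In C57 grafts Btc rose, as given above, and 3 genes fell, against 22.6% of all genes (8.4% higher, 14.2% lower). Of all genes that passed there 37.1% were higher, and 52.2% under upper quartile normalization. Epgn fell to 3.40, 2.66 and 1.40 CPM on day 28, against 8.09, 13.0 and 9.31 CPM on day 14 (-1.95 ± 0.63, adjusted p = 0.0390). The groups were apart, yet the Epgn call was lost whichever library was left out (adjusted p = 0.0575 to 0.120) and without the filter (adjusted p = 0.0751). Tgfa fell to 47.0, 41.7 and 41.7 CPM, against 87.6, 78.9 and 63.4 CPM (-0.80 ± 0.22, adjusted p = 0.0154), and its call was lost without C57 replicate 1 of day 14 or replicate 2 or 3 of day 28 (adjusted p = 0.0528 to 0.0652). Egfr fell to 96.8, 100.5 and 106 CPM, against 127, 132 and 126 CPM (-0.33 ± 0.08, adjusted p = 0.00703). All 7 hair follicle markers, which follow the hair cycle, fell with them and summed to 529.5 to 1208 CPM on day 28 and 5094 to 8876 CPM on day 14 in these grafts, and their part was not tested.

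Grafted C57 skin was compared with C57 ear on each day. On day 14, 5 of the 10 genes rose and Btc fell, against 52.6% of all genes (30.6% higher, 22% lower), a share of members near that of all genes. Areg (5.87 ± 0.74, adjusted p = 3.02e-06), Epgn (3.60 ± 0.63, adjusted p = 0.000129), Tgfa (1.16 ± 0.20, adjusted p = 9.71e-05) and Ereg (1.11 ± 0.30, adjusted p = 0.00493) rose, and Btc fell by 1.34 (SE 0.19, adjusted p = 5.78e-06) on the log2 scale. Areg was 9.40 without C57 ear replicate 3, the only C57 ear library with Areg counts. All 4 wound-associated keratins and all 7 hair follicle markers rose and all 6 skeletal muscle markers fell in this comparison, and their part was not tested. Egfr rose by 0.18 ± 0.07 (adjusted p = 0.0419), a call lost under each other normalization, without the filter and in DESeq2 (adjusted p = 0.109 to 0.345), and also without any C57 graft library or without replicate 1 or 3 of the C57 ears (adjusted p = 0.0763 to 0.240). Hbegf was higher in every C57 graft of day 14 than in every C57 ear but did not pass (0.76 ± 0.34, adjusted p = 0.0683). It passed in DESeq2 (0.72, adjusted p = 0.0488) and with only the compared groups (0.70, adjusted p = 0.0042). On day 28, 3 genes rose, against 39.2% of all genes (21.3% higher, 18% lower). They were Areg (4.77 ± 0.82, adjusted p = 0.000205, and 8.30 without C57 ear replicate 3), Ereg (1.04 ± 0.30, adjusted p = 0.0111) and Btc (1.00 ± 0.17, adjusted p = 0.000127). The Ereg call was lost without C57 graft replicate 1 of day 28 (0.70, adjusted p = 0.0938). Epgn did not pass on day 28 (1.64 ± 0.77, adjusted p = 0.0995). It passed in DESeq2 (1.60, adjusted p = 0.00752) and with only the compared groups (1.63, adjusted p = 0.00594). Tgfa passed with only the compared groups (0.35, adjusted p = 0.0233) and Hbegf without C57 graft replicate 2 (1.04, adjusted p = 0.0134). Among 8 Schwann cell markers, 2 fell and none rose on day 28, and among 6 skeletal muscle markers 1 fell and none rose. Their part in the Btc result was not tested.

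Grafted E7 skin was set against E7 ear in the same way. On day 14, Btc rose (1.11 ± 0.20, adjusted p = 0.00022) and Egfr and Erbb3 fell, against 43.2% of all genes (21.9% higher, 21.3% lower). On day 28, Btc rose (1.17 ± 0.20, adjusted p = 0.00012) and Ereg, Egfr, Erbb2 and Erbb3 fell, against 48.1% (23.8% higher, 24.2% lower). Ereg fell by 1.28 (SE 0.29, adjusted p = 0.00154) on the log2 scale on day 28, and its level on day 14 was within 0.02 ± 0.28 log2 units of the ear. Erbb3 fell by 0.37 and 0.60 on the 2 days. The Egfr call of day 14 was lost without E7 ear replicate 2 or 3 or graft replicate 2 (adjusted p = 0.0713 to 0.0810). The Erbb2 call of day 28 was lost without any E7 ear library or graft replicate 3 (adjusted p = 0.0662 to 0.136) and under upper quartile normalization (-0.14, adjusted p = 0.136). Epgn missed the threshold on day 14 (0.99 ± 0.40, adjusted p = 0.0519) and passed under upper quartile normalization, in DESeq2 and with only the compared groups (adjusted p = 0.0448, 0.0427 and 0.00055). Among 8 Schwann cell markers, 1 rose and 3 fell on day 14, and 3 rose and 1 fell on day 28. They summed to 102.8 to 145.1 CPM on day 14 and 207.7 to 222.5 CPM on day 28, against 231.5 to 242.1 CPM in E7 ears. Among 6 skeletal muscle markers, 4 fell on day 14 and 1 on day 28, and none rose. The part of these markers in the Btc result was not tested.

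The log2 fold change of E7 over C57 skin was lower in grafts of day 14 than in ear for Areg, Epgn, Erbb3 and Egfr, and it was higher for Btc. These were 5 of 10 genes, against 12.6% of all genes (4.02% higher, 8.61% lower). Of these 31.8% were higher, and 55.2% under upper quartile normalization, which moved the median of all genes by 0.108. For Areg the difference of log2 fold changes was -5.24 ± 0.89 (adjusted p = 0.000748) and for Btc 2.45 ± 0.28 (adjusted p = 1.23e-05). The values for Epgn, Erbb3 and Egfr were -2.61 ± 0.77 (adjusted p = 0.0321), -0.48 ± 0.12 (adjusted p = 0.0122) and -0.40 ± 0.10 (adjusted p = 0.0153). Egfr did not pass under upper quartile normalization (-0.29, adjusted p = 0.0627). C57 ears, with almost no Areg or Epgn, enter these values, and without C57 ear replicate 3 the Areg value was -8.78. Leaving out 1 library ended the Epgn call in 10 of 12 cases (adjusted p = 0.0502 to 0.0922, and 0.0620 without the filter), the Egfr call in 3 (without E7 ear replicate 2, C57 graft replicate 1 or E7 graft replicate 2) and the Erbb3 call in 1 (without C57 graft replicate 1).

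Per length, the 6 ligands made up very different totals. Summed CPM per kb of exon was 108 ± 8.78 in E7 ears and 20.6 ± 0.906 in C57 ears (SD, n = 3 each). In grafts of day 14 the sum was 81.7 ± 39.0 for CD1dKOxE7, 137 ± 1.92 for E7 and 46.5 ± 2.99 for C57 donors. On day 28 it was 109 ± 41.7 for CD1dKOxE7, 66.0 ± 7.71 for E7 and 40.8 ± 7.07 for C57 donors. CD1dKOxE7 libraries spread widest, between 46.2 and 123 CPM per kb on day 14 and between 68.7 and 152.0 on day 28. Without replicate 3 the sum of CD1dKOxE7 grafts of day 28 was 129 CPM per kb, of which Ereg held 41.5%, against 37.3% with it.

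Ereg was the most abundant ligand per length in 7 of the 8 groups. This rank and the shares depend on the lengths, which cover all annotated exons and not the transcripts present. In mean CPM, Tgfa was above Ereg in C57 ears (34.25 against 30.35) and C57 grafts of day 14 (76.6 against 65.6). In CD1dKOxE7 grafts of day 14, mean CPM was 88.1 for Tgfa, 70.5 for Hbegf, 35.65 for Ereg and 26.0 for Areg. It held 53.5 ± 1.47% of ligand CPM per kb in E7 ears and 35.7 ± 2.06% in C57 ears. CD1dKOxE7 grafts of day 14 were the exception, with 11.6 ± 3.39% Ereg and 26.2 ± 0.496% Areg, against 42.9 ± 2.51% Ereg and 12.5 ± 4.01% Areg in E7 grafts. Btc held 1.05 ± 0.298% in E7 ears and 26.2 ± 1.95% in C57 ears, and on day 28 it held 3.91 ± 1.22% in E7 and 27.1 ± 5.05% in C57 grafts. Among the receptors, mean levels over the groups were 30.9 to 42.2 CPM per kb for Erbb2, 18.1 to 33.8 for Erbb3 and 8.92 to 11.4 for Egfr.

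**Figure D5:**
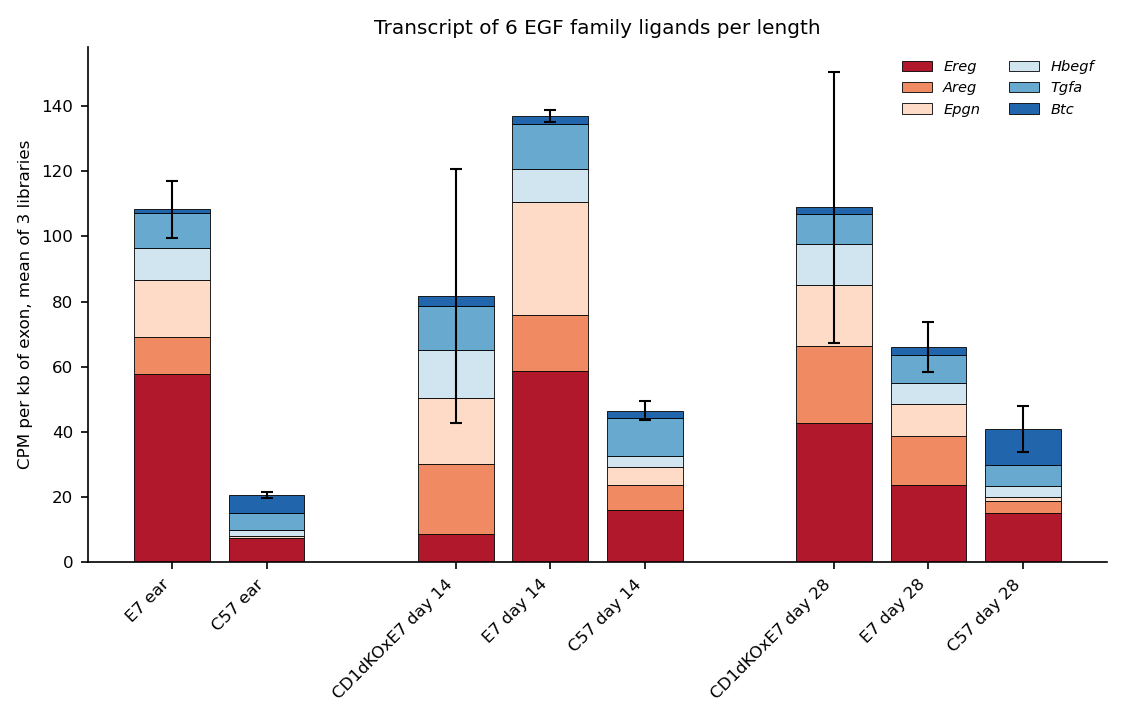
Stacked mean CPM per kb of exon (y axis from 0) of the 6 ligands in the 8 groups, with bars of ± SD (n = 3) on the total. E7 ears and E7 grafts of day 14 reach 108 and 137, against 20.6 and 46.5 in the C57 groups, and the Ereg segment is small in CD1dKOxE7 grafts of day 14.

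Over the 8 groups, the mean CPM of Epgn varied 76.1-fold, Btc 9.64-fold, Ereg 7.99-fold, Hbegf 7.41-fold and Tgfa 2.62-fold, while Erbb3 varied 1.87-fold, Errfi1 1.63-fold, Erbb2 1.37-fold and Egfr 1.28-fold. No fold is given for Areg, whose lowest group, C57 ears, held 6 counts in 1 library. Areg was highest in CD1dKOxE7 grafts of day 28, then CD1dKOxE7 grafts of day 14, E7 grafts of day 14 and day 28, E7 ears, C57 grafts of day 14 and day 28, and C57 ears. Neighbours in this order were apart in 3 of 7 steps, which were E7 grafts of day 28 over E7 ears, E7 ears over C57 grafts of day 14, and C57 grafts of day 28 over C57 ears.

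For Ereg the order was E7 grafts of day 14 (242 CPM), E7 ears (239), CD1dKOxE7 grafts of day 28 (176), E7 grafts of day 28 (98.1), C57 grafts of day 14 (65.6) and day 28 (61.9), CD1dKOxE7 grafts of day 14 (35.6) and C57 ears (30.4). Steps were apart below E7 grafts of day 28 and below C57 grafts of day 28, and overlapped elsewhere. Without replicate 3, CD1dKOxE7 grafts of day 28 kept their place at 223.2 CPM and were apart from E7 grafts of day 28. For Epgn the order was E7 grafts of day 14 (62.5 CPM), CD1dKOxE7 grafts of day 14 (37.0) and day 28 (33.3), E7 ears (31.5), E7 grafts of day 28 (17.9), C57 grafts of day 14 (10.1) and day 28 (2.49) and C57 ears (0.821). Every step below E7 ears was apart and every step above them overlapped. Without replicate 3, CD1dKOxE7 grafts of day 28 came second at 39.99 CPM, apart from E7 grafts of day 14.

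For Hbegf the order was CD1dKOxE7 grafts of day 14 (70.5 CPM) and day 28 (61.8), E7 grafts of day 14 (49.7), E7 ears (48.5), E7 grafts of day 28 (30.9), C57 grafts of day 14 (16.1) and day 28 (15.3) and C57 ears (9.51). Steps were apart below CD1dKOxE7 grafts of day 28, below E7 ears and below E7 grafts of day 28. Hbegf and Areg were the 2 ligands with their highest means in the CD1dKOxE7 groups. For Btc, C57 grafts of day 28 (48.9 CPM) and C57 ears (24.4) led and E7 ears (5.07) came last, each apart from its neighbour, while the 5 groups between, from 13.5 to 9.35 CPM, overlapped in turn. Tgfa ran from E7 grafts of day 14 (89.8 CPM) to C57 ears (34.2), with steps apart at the 2 lowest groups, C57 grafts of day 28 and C57 ears.

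The receptors and Errfi1 had narrow ranges. Erbb3 ran from E7 ears (204 CPM) over E7 grafts of day 14 (158) and day 28 (134) to CD1dKOxE7 grafts of day 14 (109), and the first 2 steps were apart. Erbb2 ran from E7 ears (220 CPM) to CD1dKOxE7 grafts of day 14 (161) and Errfi1 from E7 ears (116 CPM) to CD1dKOxE7 grafts of day 14 (71.1), with no step apart. Egfr ran from E7 ears (129 CPM) to C57 grafts of day 28 (101), with C57 grafts of day 14 (128) apart from C57 ears (113). Without their replicate 3, CD1dKOxE7 grafts of day 28 moved up by 1 place for Erbb2 and down by 1 for Egfr, with no step newly apart.

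Among the 10 genes, the closest pairs over the 24 libraries in log2 CPM were Hbegf and Epgn (Pearson r = 0.892), Ereg and Errfi1 (r = 0.884), Areg and Epgn (r = 0.881) and Erbb2 and Erbb3 (r = 0.878). Btc and Epgn ran most against each other (r = -0.707). Outside the 10, the gene most like Epgn was Kpnb1 (r = 0.976), like Ereg Arl5b (r = 0.956), like Areg Slc39a2 (r = 0.951), like Erbb3 Evpl (r = 0.942), like Hbegf Eif1a (r = 0.936), like Tgfa Zdhhc13 (r = 0.931), like Erbb2 Ppfia3 (r = 0.931), like Btc Scgb1a1 (r = 0.903), like Errfi1 Arl5b (r = 0.892) and like Egfr Notch2 (r = 0.848), among 15125 genes. These values describe 24 libraries that share 8 groups and 2 tissues. Ereg and Errfi1 thus had the same closest gene.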

How the data were processed

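Whole ear skin and grafted ear skin were measured by RNA sequencing of total RNA (TruSeq RNA v2), per the labels' protocols, in 24 libraries. The authors deposited integer read counts per gene, 1 table per library. Per the submitters' processing notes, reads were handled with bcl2fastq 1.8.4, FastQC and Trimmomatic and the genome was mm10. The aligner, the counter and its strand setting are not given in the sources used here.

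Counts were filtered on low counts (minimum 10, total 15), scaled by TMM and tested with edgeR 4.0.16 (quasi-likelihood, Benjamini-Hochberg adjusted p, threshold 0.05, R 4.3.3, limma 3.58.1) in 3 fits, of the 6 ear, the 18 graft and all 24 libraries. These held 15720, 16189 and 16612 genes. CPM came from the fit of all libraries. SE is the absolute log2 fold change over the square root of F. Log2 CPM, used for the correlations, had a prior count of 2, and the log2 fold changes had the default prior count of edgeR. CPM per kb used GENCODE exon unions. In all, 15 comparisons were made, and scripts were tested on simulated data. At these totals, 3 counts correspond to 0.217 to 0.458 CPM, which covers counting error only. Of the 27180 genes, 25275 matched RefSeq, and the other 1905 held 0.826 to 1.56% of counts.

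The 10 genes, the pathway lists and the marker lists were chosen with earlier results of these data known. Every one of the 10 genes is named, and the pathway genes named were taken from the 3 with the lowest adjusted p per list and direction. The genes most like a member were those with the highest Pearson correlation. As alternatives, DESeq2 1.42.0, scaling by RLE or by the upper quartile, unfiltered counts, other sets of libraries in the fit, a replicate block and the omission of each library were run.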

Additional observations from a re-analysis of the deposited data

Results flagged for a closer look

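Differences between settings passed their own test for 8 results (edgeR quasi-likelihood test, Benjamini-Hochberg adjusted p). Between days, the log2 fold change of E7 over C57 grafts differed for Btc by -2.27 (day 28 minus day 14, adjusted p = 0.0013). The log2 fold change of CD1dKOxE7 over E7 grafts differed between days for Ereg by 3.61 (adjusted p = 0.00063) and for Errfi1 by 0.93 (adjusted p = 0.019). Leaving out 1 library ended the Errfi1 call in 2 of 12 cases.

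Between grafts of day 14 and ear, the log2 fold change of E7 over C57 skin differed for Areg by -5.24 (adjusted p = 0.000748), for Btc by 2.45 (adjusted p = 1.23e-05), for Epgn by -2.61 (adjusted p = 0.0321), for Egfr by -0.40 (adjusted p = 0.0153) and for Erbb3 by -0.48 (adjusted p = 0.0122). Tissue and sequencing run cannot be told apart in these 5 values. Leaving out 1 library ended the Epgn call in 10 of 12 cases, the Egfr call in 3 and the Erbb3 call in 1. Egfr did not pass under upper quartile normalization (adjusted p = 0.0627) and Epgn did not pass without the filter (adjusted p = 0.0620). The size of the Areg value rests on 6 counts in C57 ears.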

How the results depend on the processing

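No value of the 10 genes changed its direction where it had a call, over all alternatives run. Single genes kept their call, or the lack of one, in 1884 cases, gained a call in 35 and lost it in 91. The 1884 include values without a call that changed sign. An example is Areg in CD1dKOxE7 over E7 grafts of day 14, which went from 0.29 to as low as -0.13 with 1 library left out. Of the counts, those given here moved by over 1.5 times. Without the filter, 4 of the 10 genes passed for E7 over C57 grafts of day 14, against 7, with Areg, Erbb2 and Errfi1 lost. For CD1dKOxE7 over E7 grafts of day 28, where 34 genes passed, DESeq2 passed 244, a fit of the compared groups alone 3 and a fit of all 24 libraries 125. For day 28 over day 14 of CD1dKOxE7 grafts, where 2 of the 10 genes passed, DESeq2 and the fit of all libraries each passed 4 (Btc and Tgfa added), and the compared groups alone passed 1 (Errfi1 lost), with 1308 genes against 3660. For the E7 effect between days, where 27 genes passed, DESeq2 passed 152, the compared groups alone 55 and all libraries 62. For the CD1dKOxE7 effect between days the compared groups alone passed 1314 genes, against 2080. With only the compared groups, C57 grafts of day 28 over ear had 5 of the 10 genes (Epgn and Tgfa added) and E7 grafts of day 28 over ear had 8 (Areg, Hbegf and Epgn added).

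The replicate numbers did not pair the graft libraries, since same-numbered libraries had a mean r of -0.004 and others of 0.002, and 6 of 18 libraries correlated best with their own number. With a replicate block, 65 genes passed for CD1dKOxE7 over E7 grafts of day 28. The block ended the call of Areg on day 14 for E7 over C57 (adjusted p = 0.0625), added that of Tgfa between days in CD1dKOxE7 grafts (adjusted p = 0.0409) and changed no other call of the 10 genes.

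Each library was left out in turn. For E7 over C57 grafts of day 14, 4 to 5 of the 10 genes and 3043 to 4488 genes passed, with 4 without C57 replicate 2 or 3 or E7 replicate 2, and 3043 without C57 replicate 3. For CD1dKOxE7 over E7 grafts of day 28 it was 0 to 1 and 4 to 304, with the highest values without CD1dKOxE7 replicate 3 and 4 genes without E7 replicate 1. Between days, C57 grafts had 2 to 3 of the 10 genes, with 2 without C57 replicate 1 of day 14 or replicate 2 of day 28. E7 grafts had 0 to 3 and 1211 to 2753 genes, with 0 without replicate 1 of day 14 or replicate 1 or 2 of day 28. CD1dKOxE7 grafts had 1 to 4 and 2022 to 5142 genes, with 4 without replicate 2 of day 14 and 1 without replicate 1 of day 28. For the E7 effect between days 12 to 72 genes passed, and for the CD1dKOxE7 effect 1 to 3 of the 10 genes and 1099 to 3956 genes. For the E7 effect in grafts of day 14 against ear it was 2 to 4 and 1394 to 1882, with 2 without C57 graft replicate 1. The cause of these moves was not tested. The size of the Areg change in ear rests on 6 counts in C57 ears.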
